A study of Mus musculus with 8 samples.

Results

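Mouse fat cell precursors without Irf3 were followed through differentiation in culture on 4 of the 8 arrays of the series, with 1 array on each of days 3, 5, 7 and 9. These 4 samples were chosen by genotype and made up every Irf3-knockout array of the series. The cells were preadipocytes, the committed precursors of fat cells, isolated from white adipose tissue and cultured in high-glucose DMEM with NCS, glutamine, insulin and sodium ascorbate. Total RNA was labelled with biotin and hybridised to Illumina bead arrays. The labels used here do not give the strain, age or sex of the mice, the number of animals or cultures behind an array, whether animals were pooled, the array slide, or which part of Irf3 was deleted. Days 3 and 5 (2 arrays, the early window) were compared with days 7 and 9 (2 arrays, the late window). Arrays of a window are neighbouring days and not repeats of 1 condition, so each standard error below holds the change between those days as well as technical spread. The 4 wildtype arrays, taken on the same days, entered the closing comparison of genotypes and the reading of the Irf3 probe.

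IRF3 is a transcription factor that sits downstream of cytosolic and endosomal nucleic acid sensors and Toll-like receptors, and once phosphorylated it switches on interferon-beta and a set of interferon-stimulated genes. Fat cell differentiation is driven by PPARG and C/EBPA, which induce the enzymes of fatty acid and triglyceride synthesis, the coat proteins of lipid droplets and the secreted adipokines, while precursors leave the cell cycle. Cells isolated from adipose tissue as precursors can also hold resident macrophages, endothelial cells, mesothelial cells and other cell types of the depot.

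The 4 arrays were of like quality. Between 48.9% and 52.2% of the 25697 probes were above background (detection p below 0.05), and the mean raw intensity lay between 924 and 1026. After background correction and quantile normalization, 9103 genes were above background on at least 2 of the 4 arrays, and 8025 of them on all 4. The dimmest probe above background read 5.705, 5.776, 5.534 and 5.685 (log2 intensity) on days 3, 5, 7 and 9. Readings of these 4 arrays below those values, given in the text below, were not above background. The Irf3 probe used read 10.82, 10.79, 10.44 and 11.15 (log2 intensity) on days 3, 5, 7 and 9, and its 2 other probes also read above background. The same probe read at most 11.38 in the wildtype arrays and between 10.36 and 11.09 in the knockout arrays when all 8 arrays were normalized together. Since the deleted part is not given, these probes do not check the genotype label.

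Neighbouring arrays were more alike late in the course. The correlation across genes was 0.9625 between days 3 and 5 and 0.9826 between days 7 and 9, and days 3 and 9 were the least alike at 0.9135 (values across genes, which are not independent replicates). On the first principal component, which held 76.2% of the variance, the arrays lay at -55.4, -6.60, 28.7 and 33.3 in the order of days. From day 3 to day 5, 477 genes were at least 2-fold higher (5.24% of those tested) and 235 at least 2-fold lower (2.58%). From day 5 to day 7 the counts were 357 (3.92%) and 178 (1.96%), and from day 7 to day 9 they were 148 (1.63%) and 98 (1.08%). With 1 array a day these step counts have no test.

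**Figure D1:**
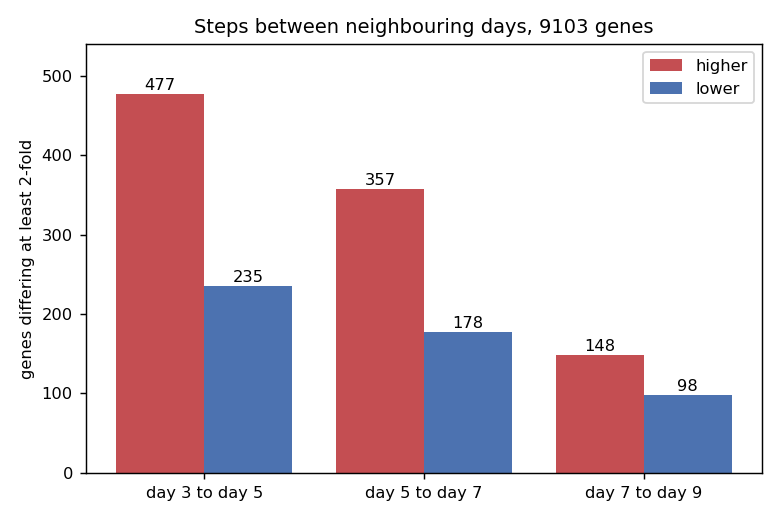
Number of genes at least 2-fold higher (red) or lower (blue) at each step between neighbouring days in the Irf3-knockout arrays, of 9103 genes tested, with 1 array per day. The counts are 477 and 235 at the first step and 148 and 98 at the last.

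The test of the late against the early window called no gene. In limma, the smallest Benjamini-Hochberg adjusted p was 0.136, so 0 of 9103 genes passed (0%), while 1577 genes had an unadjusted p under 0.05. A trended and robust variance prior called 14 genes, and 997 were called without the day 5 array and 32 without the day 3 array. As a description, 2082 genes (22.9%) read higher on both late days than on both early days and 2759 (30.3%) read lower on both. At a mean difference of at least 2-fold these counts were 581 (6.38%) and 251 (2.76%). Without the day 3 array they were 375 and 131, and without the day 5 array 841 and 548.

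A straight line through the 4 days, fitted in place of the windows, gave calls. In limma, 213 genes rose (2.34% of those tested) and 46 fell (0.505%) at an adjusted p below 0.05, and all 259 had late and early windows that did not overlap. Of the 213 and 46, 139 and 30 were above background on all 4 arrays. A gene above background in 1 window only had passed the filter through the window where it was high, so its difference is given below as a bound. The line favours genes that moved by a like amount at each step, so a gene that jumped between days 3 and 5 and then stayed level was less likely to pass. No gene was called without the day 7 array and 488 were called without day 9. Without day 3 the count was 151, of which 113 were among the 259. In the text below, "rose" and "fell" are used for genes called by this line, and "higher" and "lower" for measured differences that no test called.

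Fat cell genes were among the largest differences. Of 20 measured markers of mature fat cells, 15 read higher on both late days (22.9% of all genes did) and 1 read lower. Their median late minus early difference was 2.52 log2 units, against -0.07 over all genes tested. None of the 20 was called by the line (lowest adjusted p 0.0519 in limma), but 5 were without the day 5 array and 13 without day 9. In bulk RNA, a larger share of a cell type and more RNA per cell of that type cannot be told apart, here and in all results below.

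The timing of these genes was early. Of the 17 fat cell markers that differed at least 2-fold between days 3 and 9, the median had 80.4% of that difference on day 5, against 51.0% over the 1577 genes that differed as much. The median step was 3.00 log2 units from day 3 to day 5, 0.99 from day 5 to day 7 and -0.32 from day 7 to day 9. The highest reading was on day 7 for 17 of the 20 markers.

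**Figure D2:**
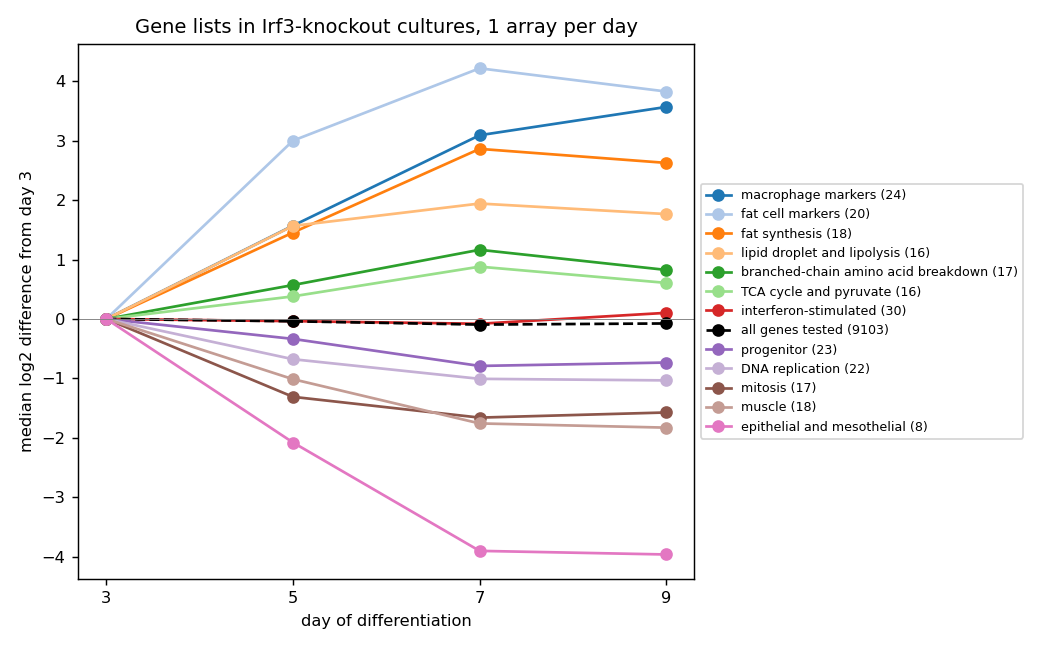
Median log2 difference from day 3 of the measured members of 12 gene lists and of all 9103 genes tested (black, dashed) on days 3, 5, 7 and 9 of Irf3-knockout cultures, with the number of genes in brackets and 1 array per day. Fat cell markers reached 4.22 on day 7 and 3.83 on day 9, while macrophage markers went on from 3.09 to 3.57.

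The transcription factors that start this programme moved by unequal amounts. Pparg, the nuclear receptor that directs fat cell differentiation, read 10.63, 12.79, 13.12 and 12.69 on the 4 days, and Cebpa, which acts with it, read 7.99, 9.44, 10.39 and 9.14. Both were lowest on day 3, and on these probes the day 9 reading was below that of day 5. The other Pparg probes went the other way, with 9.85 and 8.66 on day 5 and 10.00 and 8.89 on day 9. Mlxipl, which encodes the glucose-sensing factor ChREBP, read 5.74, 9.10, 10.39 and 10.58 (late minus early 3.06 ± 1.03 SE, adjusted p = 0.237 in limma). Srebf1, a driver of fatty acid synthesis genes, read 7.89, 10.08, 11.49 and 11.27. Cebpb, which acts early in differentiation, was high and nearly level at 13.21, 13.18, 12.89 and 12.84. Klf5, an early factor that induces Pparg, went the other way, from 7.93 and 6.71 to readings not above background on both late days (at least 3.28-fold lower). Of 19 measured factors, 4 read higher and 6 lower on both late days, near the shares of all genes (22.9% and 30.3%). Their median difference was 0.08, and none was called by the line.

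Fatty acid and triglyceride synthesis was higher late in most members. Of 18 measured genes, 14 read higher on both late days and 1 read lower (22.9% and 30.3% of all genes), with a median difference of 2.02. Thrsp, a small lipogenic protein of fat cells and liver, went from a reading not above background on day 3 (5.02) to 11.04, 13.84 and 13.57. Its late minus early difference of 5.67 ± 1.83 was the largest of any gene, with an adjusted p of 0.227. Fasn, the fatty acid synthase, read 5.41 on day 3, also not above background, and then 7.71, 10.25 and 9.90. Acaca, which makes the malonyl-CoA that FASN uses, read 11.27, 12.68, 14.06 and 14.05 and rose by 0.49 ± 0.08 log2 units per day (adjusted p = 0.0499 in limma). It was the only lipogenic gene of the list past the threshold, and by a small margin.

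The promoter of Fasn is shown because this gene went from background to a high reading within 4 days. It comes from RefSeq on GRCm38.p6 and spans 250 bases before to 50 after the annotated start (chr11:120824498-120824797, minus strand). Capitals mark CCAAT, searched on both strands, and the last 2 of its 3 matches overlap.
Fasn: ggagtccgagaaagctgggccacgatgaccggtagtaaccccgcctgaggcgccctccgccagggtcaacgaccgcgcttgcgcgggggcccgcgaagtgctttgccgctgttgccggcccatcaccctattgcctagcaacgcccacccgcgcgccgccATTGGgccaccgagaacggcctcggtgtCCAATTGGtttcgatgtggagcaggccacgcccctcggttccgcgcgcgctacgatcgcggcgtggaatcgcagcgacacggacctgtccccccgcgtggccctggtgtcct
CCAAT was in 8 of 17 promoters of the lipogenic genes that matched the table (13 of 18 genes) and in 37.4% of all 32851 promoters of this length. A match of letters does not show that a factor binds there.

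Elovl6, which elongates the fatty acids that FASN makes, stood apart in its path. It read 10.85 and 10.78 on the early days and 12.56 on both late days, a difference of 1.74 ± 0.20 (adjusted p = 0.136). Slc25a1, the mitochondrial citrate carrier, took its largest step at the same time, with 10.85, 11.73, 13.78 and 13.47. Gpd1, which supplies glycerol phosphate, and Dgat2, which closes triglyceride synthesis, took theirs from day 3 to day 5. Gpd1 read 5.35, 9.66, 11.46 and 10.35, and Dgat2 read 9.43, 13.43, 14.38 and 14.23. The desaturase Scd1 was already at 12.75 on day 3 and read 14.34, 14.74 and 14.30 after it.

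Lipid droplet and lipolysis genes followed the same early course. Of 16 measured, 11 read higher on both late days and 1 lower (22.9% and 30.3% of all genes), with a median difference of 1.19. Cidec, which lets lipid droplets fuse into large ones, read 4.70 on day 3, not above background, and then 9.41, 12.14 and 12.13 (5.09 ± 1.43, adjusted p = 0.204). The lipases Pnpla2 and Lipe read 9.89, 12.90, 14.20 and 13.69, and 5.04, 8.06, 10.02 and 9.08. A second Lipe probe read only between 5.91 and 6.67 and differed by 0.43. Adig, a small protein of fat cells, had the largest first step of all genes at 6.54 log2 units, from 4.83 to 11.36, and stayed at 12.96 and 13.12. Lpl, lipoprotein lipase, was at the bright end of the arrays on all days (14.83, 14.65, 14.45 and 14.58), where differences are compressed. The Fabp4 probe was dim throughout (5.15, 5.80, 6.84 and 6.07), so the course of this widely used marker was not readable from it.

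Adipokines and secreted proteins held some of the largest early steps. Adipoq, adiponectin, read 9.34 on day 3 and 14.11, 14.44 and 14.46 after it, and Lep, leptin, read 5.75, 9.41, 9.96 and 10.18. Orm1, an acute-phase glycoprotein, went from 4.94 on day 3, not above background, to 11.25 on day 5 and 13.28 on day 7. The major urinary proteins Mup2 and Mup6 gained 5.52 and 5.43 log2 units from day 3 to day 5. Their genes are near-identical copies in a large family, so each probe may read several of them. Rbp4, the retinol carrier, took its largest step later and read 7.73, 8.48, 10.42 and 9.68. Angptl4, an inhibitor of lipoprotein lipase, was lower late at 13.72, 12.96, 12.20 and 12.04, as was the acute-phase protein Saa3 at 14.33, 14.59, 13.67 and 13.45. Of 19 measured, 9 read higher on both late days and 2 lower (22.9% and 30.3% of all genes).

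Slc2a4, the insulin-responsive glucose transporter GLUT4, read 5.30, 7.56, 10.46 and 9.85, with day 3 not above background (late minus early 3.73 ± 0.73, adjusted p = 0.164). Downstream of glucose uptake, the glycolytic list gave 10 of 15 genes higher on both late days and 2 lower (22.9% and 30.3% of all genes). Aldoc, an aldolase, rose by 0.55 ± 0.07 per day (adjusted p = 0.0272) and read 5.01, 6.94, 7.70 and 8.42. It was the only member of that list that rose.

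Mitochondrial genes were higher late by smaller amounts. Of 24 fatty acid oxidation genes, 17 read higher on both late days and 0 lower (22.9% and 30.3% of all genes), with a median difference of 0.53. The counts were 13 of 16 for the TCA cycle and pyruvate entry (median 0.51), 11 of 17 for breakdown of branched-chain amino acids (median 0.60) and 17 of 25 for the respiratory chain (median 0.42), with 0 lower in each. Pcx, which refills the cycle with oxaloacetate and so supports citrate export, read 6.89, 9.25, 11.52 and 11.03. Aldh6a1, of valine breakdown, read 9.88, 11.09, 12.30 and 12.05.

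Cox8b, a cytochrome oxidase subunit of heart, muscle and brown fat, was the member of these lists that rose. It read 6.35, 10.16, 11.25 and 12.01, or 0.90 ± 0.16 per day (adjusted p = 0.0499). Cox7a1, another subunit of muscle and brown fat, read 7.41, 9.67, 10.94 and 10.89 and was not called (adjusted p = 0.0632). Of 8 measured brown and beige fat genes, 3 read higher and 2 lower on both late days (22.9% and 30.3% of all genes). The transcription factor Ebf2 was among the lower ones (9.70, 9.32, 8.71 and 8.85). Ucp1 and Cidea, the usual markers of brown fat, were above background on fewer than 2 of the 4 arrays.

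**Figure D3:**
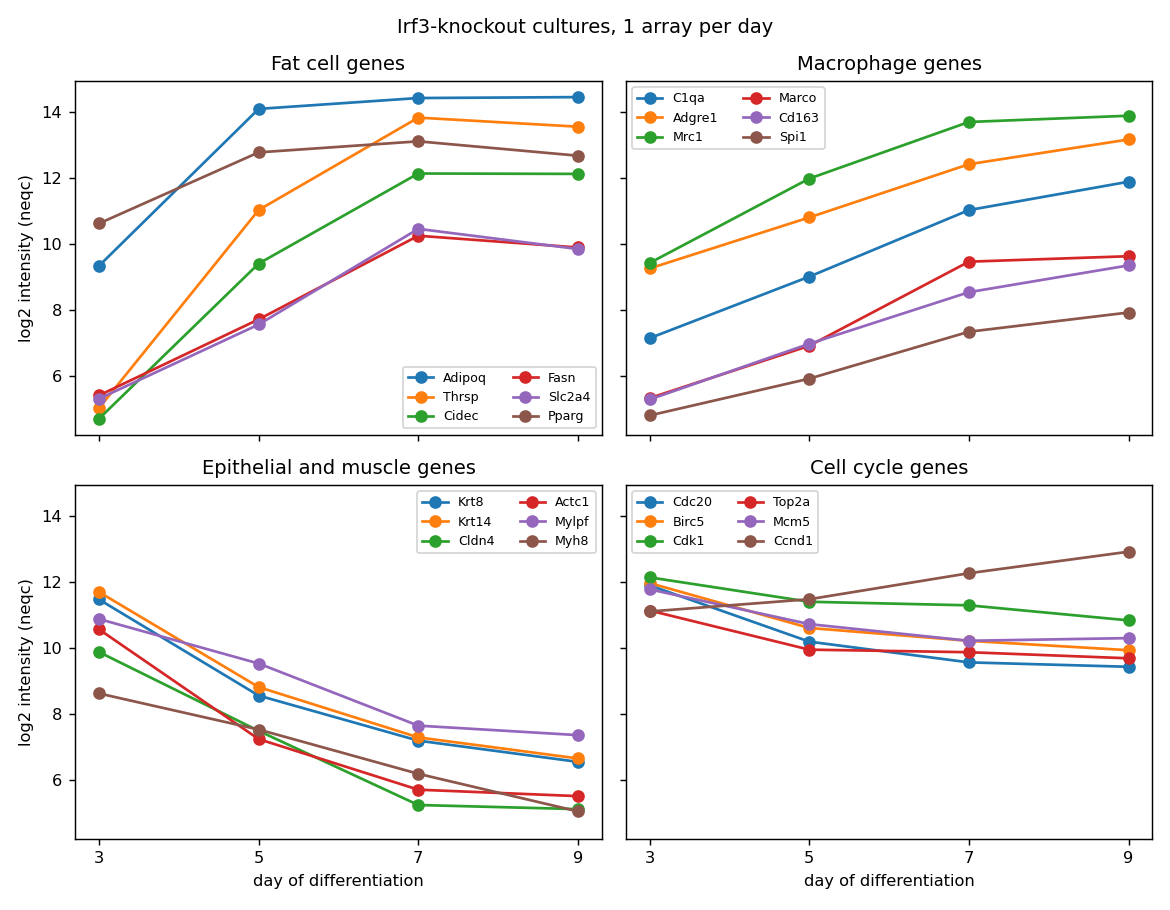
Normalized log2 intensity on days 3, 5, 7 and 9 of 24 genes in Irf3-knockout arrays, with 1 array per day, in 4 panels with a shared scale. Fat cell genes level off or decline after day 7, the 6 macrophage genes are higher at each step, and epithelial, muscle and most cell cycle genes are lowest on day 7 or 9.

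Macrophage genes rose through the whole course. Of 24 measured markers of macrophages and monocytes, 18 rose by the line fit (2.34% of all genes did), with slopes between 0.325 and 0.814 log2 units per day and adjusted p between 0.014 and 0.0408. Of these 18, 14 were above background on all 4 arrays. The median late minus early difference was 2.45, and 21 of the 24 read higher on both late days (22.9% of all genes did). At each of the 3 steps 21 were higher, as were 9.92% of all genes. The count that rose was 12 without the day 3 array, 17 without day 5, 17 without day 9 and 0 without day 7.

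C1qa, C1qb and C1qc encode the 3 chains of the complement component C1q, which macrophages secrete. C1qa read 7.14, 9.01, 11.03 and 11.89, C1qb read 9.65, 11.63, 13.43 and 14.08, and C1qc read 9.19, 11.25, 13.19 and 13.80. All 3 rose, by 0.81 ± 0.07, 0.76 ± 0.08 and 0.79 ± 0.08 per day. Adgre1, which encodes the F4/80 antigen, read 9.26, 10.81, 12.43 and 13.18 (adjusted p = 0.014). Mrc1, the mannose receptor, rose from 9.43 to 11.99, 13.71 and 13.90, and the scavenger receptors Cd163 and Marco rose from readings not above background on day 3, 5.28 and 5.32, to 9.35 and 9.63 on day 9. Spi1, the gene of PU.1, the transcription factor that myeloid cells need, read 4.80, 5.91, 7.34 and 7.92 and also rose (0.54 ± 0.05 per day, adjusted p = 0.0168).

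Several genes with the largest late differences, named for their size and in no macrophage list here, also rose. F13a1, the coagulation factor XIII A chain, read 8.31, 10.77, 12.77 and 14.06 and rose by 0.96 ± 0.07 per day (adjusted p = 0.014). Fcrls, an Fc receptor-like protein of resident macrophages and microglia, read 5.40, 6.68, 10.02 and 11.35 (adjusted p = 0.0142). Lyve1, a hyaluronan receptor of lymphatic endothelium and of a group of tissue macrophages, read 5.17, 6.50, 8.85 and 10.46 (adjusted p = 0.014). Pld4, Fcna and Siglec1 rose as well, to 10.76, 11.19 and 10.74 on day 9 from 4.83, 5.23 and 5.90 on day 3. Siglec1 was added after its values were seen. Tmem45b and Sorl1 rose from 4.62 and 4.70 on day 3 to 10.70 and 10.31 on day 9. Fcrls, Lyve1, Pld4, Fcna, Tmem45b and Sorl1 were not above background on day 3.

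Lyve1 was the only one of 16 measured endothelial markers that rose. Of the other 15, 9 read lower on both late days and 1 higher (30.3% and 22.9% of all genes). Emcn and Plvap, which mark capillary endothelium, read 10.88, 10.69, 10.17 and 9.73, and 10.09, 10.10, 9.17 and 8.97. The pan-leukocyte genes Cd52, Cd53 and Coro1a rose (adjusted p 0.014 to 0.0184 in limma), which made 3 of 6 measured leukocyte markers (2.34% of all genes rose).

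Lysosomal genes were mixed. Of 25 measured, 14 read higher and 4 lower on both late days (22.9% and 30.3% of all genes), and 16 read lower on day 9 than on day 7. Laptm5, Ctsc and Ctss rose (2.34% of all genes did), and Laptm5 and Ctss are also in the macrophage list. The summed linear level of the 24 macrophage probes was 153120 and 188380 units on days 7 and 9, against 56682 and 102840 on days 3 and 5, and 19 of the 24 were above background on day 3 and all 24 on days 7 and 9. The part of more or fewer macrophages in these results was not tested.

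The promoters of C1qb and C1qc are shown because these genes lie side by side on chromosome 4 and rose together. Both are RefSeq windows on GRCm38.p6, at chr4:136886151-136886450, minus strand for C1qb and chr4:136892865-136893164, minus strand for C1qc. Capitals mark the letters GAGGAA, the core that PU.1 recognises, searched on both strands, so that the reverse complement is marked in C1qc.
C1qb: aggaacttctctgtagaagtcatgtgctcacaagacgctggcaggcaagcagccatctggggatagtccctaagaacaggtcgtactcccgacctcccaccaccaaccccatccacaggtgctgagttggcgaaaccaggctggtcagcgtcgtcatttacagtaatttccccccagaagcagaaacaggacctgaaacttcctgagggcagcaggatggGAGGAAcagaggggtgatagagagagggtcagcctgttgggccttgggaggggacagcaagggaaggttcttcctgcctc
C1qc: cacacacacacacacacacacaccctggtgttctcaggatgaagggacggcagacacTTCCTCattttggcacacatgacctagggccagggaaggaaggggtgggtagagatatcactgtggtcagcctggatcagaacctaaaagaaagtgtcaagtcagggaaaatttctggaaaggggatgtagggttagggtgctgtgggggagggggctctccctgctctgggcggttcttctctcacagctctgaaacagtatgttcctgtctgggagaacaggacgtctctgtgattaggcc
The match starts 30 bases before the start in C1qb and 193 before it in C1qc. These letters were in 15 of 22 promoters of macrophage list genes (19 of 24 genes matched the table) and in 28.3% of all promoters. This is a description of the list, and no match shows binding.

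**Figure D4:**
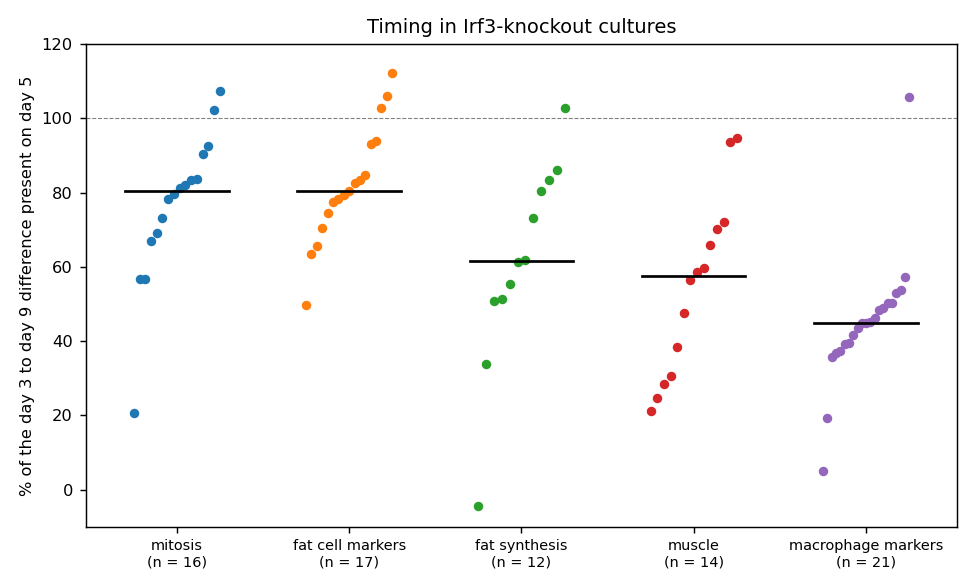
Share of the difference between days 3 and 9 that was present on day 5, in percent, for each list member whose days 3 and 9 differed at least 2-fold in Irf3-knockout arrays; points are genes in order of value and bars are medians. The medians are 80.4% for fat cell markers and for mitosis genes, and 44.8% for macrophage markers.

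The split in timing between the 2 groups was measured on the same arrays. Fat cell markers were highest on day 7 in 17 of 20 genes and macrophage markers on day 9 in 21 of 24. From day 7 to day 9 the median macrophage marker gained 0.60 log2 units, and 17 of the 20 fat cell markers read lower on day 9 than on day 7. With 1 array per day, a day and its array cannot be told apart. The part of compression at the bright end of the arrays in this split was not tested.

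Cell cycle genes were lower from day 5 on. Of 17 measured mitosis genes, 14 read lower on both late days (30.3% of all genes did) and 1 higher, with a median difference of -0.96. None fell by the line fit. Their median step was -1.31 from day 3 to day 5, -0.30 to day 7 and -0.01 to day 9. Cdc20, which activates the anaphase-promoting complex, read 11.90, 10.20, 9.57 and 9.43, and Birc5, survivin, read 11.97, 10.61, 10.22 and 9.94. Cdk1, the mitotic kinase, was still at 12.15, 11.41, 11.30 and 10.84, above background on every day.

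Ccnd1, cyclin D1, was the exception, since it rose by 0.31 ± 0.05 per day (adjusted p = 0.0344) and read 11.11, 11.49, 12.27 and 12.93. It drives entry into the cycle and has roles outside it. Of 22 DNA replication genes, 16 read lower on both late days and 0 higher (30.3% and 22.9% of all genes), with a median of -0.64. Mcm7, a subunit of the replicative helicase, fell by 0.29 ± 0.04 per day (adjusted p = 0.0357) and read 8.40, 7.66, 7.23 and 6.60.

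The promoter of Cdc20 is shown as the list member with the largest late difference (chr4:118437294-118437593, minus strand, RefSeq, GRCm38.p6). Capitals mark CCAAT, searched on both strands.
Cdc20: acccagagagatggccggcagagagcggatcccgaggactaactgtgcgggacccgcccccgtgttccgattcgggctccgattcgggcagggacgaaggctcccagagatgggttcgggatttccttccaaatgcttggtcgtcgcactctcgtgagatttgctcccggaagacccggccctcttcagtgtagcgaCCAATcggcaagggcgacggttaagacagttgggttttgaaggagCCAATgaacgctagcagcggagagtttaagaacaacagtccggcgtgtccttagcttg
CCAAT was in 12 of 16 promoters of mitosis genes, against 37.4% of all promoters.

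Epithelial genes of the epithelial and mesothelial list were among the largest late declines. Of 8 measured, 6 read lower on both late days (30.3% of all genes did). The keratins Krt8 and Krt18, partners in simple epithelia, read 11.48, 8.56, 7.19 and 6.55, and 9.19, 6.96, 5.12 and 4.82. Krt14, of basal epithelium, read 11.70, 8.82, 7.29 and 6.65, and the tight junction gene Cldn4 read 9.88, 7.49, 5.24 and 5.11. Krt8 and Krt14 fell by the line fit (adjusted p = 0.0309 and 0.0276). Krt18 and Cldn4 were above background on the early days only, so their fold is a bound, at least 5.53-fold and at least 8.42-fold lower. Krt17, of stressed and basal epithelium, was outside the list and fell from 9.53 and 8.64 to 6.89 and 5.74 (adjusted p = 0.014). Cldn11, a claudin, and Wfdc2, a secreted epithelial protein, had most of their difference at the first step, from 10.48 to 5.98 and from 9.75 to 6.35. On these probes, neither was above background on the late days (at least 6.15-fold and at least 5.42-fold lower late). A dimmer Wfdc2 probe read 6.25, 4.85, 5.02 and 5.70 on the 4 days and differed by only -0.19. The summed linear level of the 8 list probes was 9684 and 3307 units in the early arrays and 1820 and 1866 in the late ones.

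Wt1, a mesothelial transcription factor of the same list, did not follow the keratins. It read 7.89 on day 5, 6.73 on day 7 and 8.79 on day 9, the highest of the 4. Cldn15, a claudin of the list, did not follow them either, at 9.56, 10.69, 10.28 and 10.02 (late minus early 0.03). Its dimmer probes differed by -0.13 and -0.55.

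Muscle genes were present on day 3 and lower after it. Of 18 measured, 16 read lower on both late days (30.3% of all genes did) and 0 higher, with a median of -1.28, and 4 fell by the line fit (0.505% of all genes did). Myh8, the perinatal myosin heavy chain, read 8.62, 7.53, 6.18 and 5.04 (adjusted p = 0.014). Mylpf, the fast myosin regulatory light chain, read 10.88, 9.53, 7.65 and 7.36 (adjusted p = 0.025). Myl4 and Tnnc2 fell with them. Actc1, cardiac actin, read 10.57, 7.24, 5.70 and 5.51 and was just outside the threshold (adjusted p = 0.0527). Myog, the factor that drives myoblasts to differentiate, read 8.10 on day 3 and 5.92 on day 5. On this probe it was not above background on the late days. A dimmer Myog probe read 6.18, 6.53, 5.70 and 5.43 on the 4 days. The summed level of the list went from 25787 units on day 3 to 8713 on day 9.

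The promoter of Actc1 is shown as the muscle gene with the largest late decline (chr2:114052826-114053125, minus strand, RefSeq, GRCm38.p6). Capitals mark a CArG box, the site class of serum response factor.
Actc1: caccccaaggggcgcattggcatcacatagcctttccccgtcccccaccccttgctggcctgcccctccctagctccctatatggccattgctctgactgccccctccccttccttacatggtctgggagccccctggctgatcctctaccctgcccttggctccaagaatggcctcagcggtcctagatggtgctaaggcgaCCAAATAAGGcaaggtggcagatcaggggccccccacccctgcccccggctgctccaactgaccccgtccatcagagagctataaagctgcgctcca
A CArG box was in 2 of 16 promoters of muscle list genes and in 1.63% of all promoters.

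Genes of fat cell progenitors were lower late in part. Of 23 measured, 13 read lower on both late days and 1 higher (30.3% and 22.9% of all genes), with a median of -0.45. Gdf10, a BMP family ligand of fibroblasts, fell by 0.38 ± 0.05 log2 units per day (adjusted p = 0.0272) and read 12.94, 12.09, 11.08 and 10.73. Dpp4, a marker of early progenitors, read 11.11, 10.21, 8.89 and 9.00, and Cd34 read 9.12, 9.15, 7.98 and 7.65. Has2, a hyaluronan synthase, read 9.37, 8.95, 7.23 and 7.55. Pdgfra, a receptor of precursors, was still bright on day 9 (14.28, 13.88, 13.36 and 13.51). Dlk1, the Pref-1 antigen of preadipocytes that inhibits differentiation, was the 1 member higher on both late days, at 7.02, 7.01, 8.23 and 8.48 (1.34 ± 0.22, adjusted p = 0.145).

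Matrix genes differed by smaller amounts. Of 15 collagens, 8 read higher and 2 lower on both late days (22.9% and 30.3% of all genes), and the median difference was 0.17. Col15a1, a basement membrane collagen of fat, read 11.41, 11.98, 12.93 and 12.30. Of 30 other matrix genes, Loxl2, a collagen crosslinker, had the largest late decline (10.22, 9.47, 8.78 and 8.74).

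Neutrophil-attracting chemokines were among the genes lower late. Cxcl1 read 11.17, 9.16, 7.18 and 7.78 (-2.69 ± 0.66, adjusted p = 0.177), and Cxcl5 read 10.19, 8.81, 7.14 and 7.34. Of the 25 other inflammatory genes measured, 2 read higher and 7 lower on both late days (22.9% and 30.3% of all genes), and none was called. Tnf, one of those higher, read 5.46, 6.11, 7.01 and 7.08. Il31ra, an interleukin receptor chain named for its size, fell by 0.65 ± 0.07 per day (adjusted p = 0.0168), from 8.84 and 7.68 to 5.75 and 5.14.

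Interferon-stimulated genes had no common direction over the days. Of 30 measured, 9 read higher and 8 lower on both late days (22.9% and 30.3% of all genes). None was called, and the median difference was -0.05, close to -0.07 over all genes. Isg15, a ubiquitin-like protein, read 8.88, 8.05, 8.04 and 7.92, and Usp18, which removes it from its targets, read 9.52, 8.76, 8.18 and 8.35. In the other direction, the antiviral Rsad2 read 6.18, 6.13, 6.64 and 7.04, and Dhx58, an RNA sensor, read 7.24, 7.34, 8.25 and 8.10. Ifit1 and Cxcl10 were above background on fewer than 2 arrays.

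Of 22 interferon regulatory factors, sensors and adaptors, 5 rose (2.34% of all genes did) and 0 fell by the line fit, and 11 read higher on both late days (22.9% of all genes did). Of the factors themselves, Irf5 and Irf8, which act in myeloid cells, rose and read 6.95, 8.04, 8.58 and 9.46, and 6.17, 6.55, 7.75 and 8.31. Tlr7, an endosomal RNA receptor, read 6.70, 8.37, 9.33 and 9.95. Tlr2, a receptor for bacterial lipoproteins, rose as well. Ticam2, an adaptor of Toll-like receptor signalling, was the fifth member past the threshold but was above background on the late days only (at least 1.96-fold higher). Macrophages express these genes, and the macrophage markers rose in the same arrays, as given above; their part in this result was not tested. Irf4, a factor that fat cells also express, read 7.93, 6.74, 6.94 and 5.44 and was not called (adjusted p = 0.0694).

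Of 26 measured interferon-gamma and antigen presentation genes, 9 read higher and 5 lower on both late days (22.9% and 30.3% of all genes). None was called, and the median difference was 0.09. B2m was level at the bright end of the arrays (14.48, 14.62, 14.48 and 14.61). Of the MHC class I genes, H2-D1 read 8.07, 8.22, 9.94 and 9.91 (1.78 ± 0.21, adjusted p = 0.136 in limma), and H2-K1 read 6.12, 6.78, 7.79 and 7.87. Class I genes are close copies of each other, so which gene a probe reads is uncertain. Among 28 antioxidant and NRF2 target genes, Cbr2, a carbonyl reductase, rose by 0.87 ± 0.09 per day and read 7.01, 9.18, 11.37 and 12.10. Gsta3, a glutathione transferase, rose by 0.47 ± 0.07 and read 9.14, 9.77, 11.53 and 11.69.

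Most paths did not keep 1 direction at every step. Of 2345 genes whose 4 readings spanned at least 2-fold, 490 were higher at each step and 320 lower at each step, and 1535 were neither. A reversal of any size counts here, so the 1535 include genes that levelled off, such as Cidec (12.14 on day 7 and 12.13 on day 9). The highest reading was on day 3 for 923 of them, on day 5 for 228, on day 7 for 498 and on day 9 for 696.

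Some genes moved at 1 step only. Arg1, arginase 1, an enzyme of some activated macrophages, read 7.02, 6.09 and 6.74 and then 11.70 on day 9, a step of 4.97 log2 units and the largest of the last interval. Egln3, an oxygen-sensing prolyl hydroxylase that hypoxia induces, read 5.21 and 5.39 on the early days, not above background, and then 5.66 and 7.64 (at least 1.88-fold higher late). Mgarp, a mitochondrial protein, read 6.43, 6.07, 5.82 and 8.26. Each of these rests on the day 9 array alone. Draxin, an axon guidance protein, went from 10.09 on day 5 to 7.98 on day 7. Serpinb2, a protease inhibitor, read 7.03 on day 5 and was not above background on the late days (at least 2.36-fold lower late). P2ry13, a receptor for ADP on myeloid cells, went the other way, from 4.70 on day 5 to 7.56 on day 7 and 8.32 on day 9, and was not above background before (at least 4.60-fold higher late).

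A smaller group turned within the course. In 50 genes the higher of the middle days read at least 2-fold above both end days, and in 35 the lower of them read at least 2-fold below both. Cited4, a transcriptional co-regulator, read 6.46, 10.47, 9.54 and 7.77, and Mmp13, a collagenase, read 8.29, 11.24, 9.83 and 9.28. Sncg, gamma-synuclein, which fat cells express, read 9.53, 12.39, 11.24 and 10.55. Among the genes lowest in the middle, Reln, a secreted matrix protein, read 7.71, 6.33, 6.70 and 7.85, and Rab1a, a small GTPase of vesicle traffic, read 10.37, 9.72, 7.61 and 9.79. For Rab1a the single low reading was that of day 7.

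The window difference was then tested for dependence on genotype, with all 8 arrays normalized and fitted together. In limma, 0 of 9758 genes passed (0%; smallest adjusted p = 0.981), 437 had an unadjusted p under 0.05, and a test of the difference in slope also called 0. With day as a block, the count was again 0 (smallest adjusted p = 0.337), with 788 genes at an unadjusted p under 0.05. The late and early windows moved in opposite directions without overlap in 321 genes. In 184 of these (1.89%) the knockout was lower late and the wildtype higher, and in 137 (1.4%) the reverse held. In none of the 321 was the difference at least 2-fold in both genotypes.

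The 5 genes with the smallest p in each direction included P2ry13, which read between 4.66 and 5.19 on all wildtype days, with none above background, and between 7.47 and 8.23 on the late knockout days. P2ry13 was above background only on those 2 late knockout arrays and passed the filter through them. Its difference between genotypes was 2.68 log2 units (95% interval 1.79 to 3.56, adjusted p = 0.981 in limma). That value rests on readings at background, so it is not a measured size. Fcrls, above background on only 1 wildtype array, differed by 4.02 (2.25 to 5.78), with the same limit. Elovl6, above background on all arrays, differed by 1.86 (1.20 to 2.53). Elovl6 read between 10.58 and 10.92 on all 4 wildtype days, between 10.71 and 10.79 on the early knockout days and 12.49 on both late ones. Ube2l6, the enzyme that charges targets with ISG15, was lower late in the knockout (8.49, 8.50, 7.57 and 7.78) and higher late in wildtype (8.99, 8.95, 9.59 and 9.41), a difference of -1.36 (-2.01 to -0.71). None of these passed the test over all genes.

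For the interferon-stimulated list, the median late minus early difference was -0.04 in the knockout and 0.49 in wildtype, over 36 genes measured on the 8 arrays. Of these, 5 read lower on both late knockout days and higher on both late wildtype days, and 0 the reverse (1.89% and 1.4% of all genes). Only 30 genes of the list passed the filter in the knockout arrays alone, so the others entered with the help of the wildtype arrays. Knockout differences of such genes lie near background and hold little information, which affects the knockout median too. Mx1, among the 5, read only between 4.75 and 5.02 in the knockout. Isg15 read 10.64, 12.17, 12.65 and 12.59 in wildtype and 8.80, 7.97, 7.96 and 7.83 in the knockout, so all 4 wildtype readings were above all 4 knockout readings. For fat cell markers the medians were 2.51 in the knockout and 2.85 in wildtype, and for macrophage markers 2.41 and 2.25. No member of the 3 lists passed the test of the difference.

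**Figure D5:**
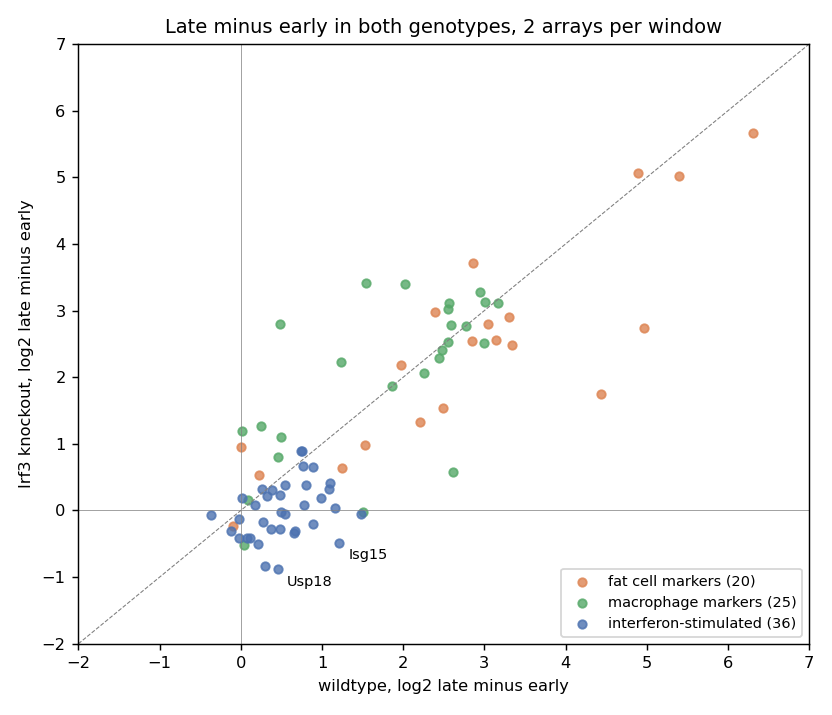
Late minus early difference (log2) in wildtype arrays (x axis) and Irf3-knockout arrays (y axis) for measured fat cell markers, macrophage markers and interferon-stimulated genes, with 2 arrays per window in each genotype and all 8 arrays normalized together. The dashed line marks equal differences. The interferon-stimulated genes have a median of -0.04 in the knockout and 0.49 in wildtype, and some of them passed the filter only with the wildtype arrays.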

How the data were processed

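RNA was hybridised to 8 Illumina bead arrays, 1 per genotype and day. The authors deposited mean bead intensity per probe, neither background-subtracted nor scaled, with a detection p-value for each probe, per the file headers. A second deposited table holds normalized intensity with a floor of 20; how it was normalized is not stated, and it served as an alternative, without the 309 genes it lists at that floor on all 4 knockout arrays. These include 25 genes considered for the text, such as Thrsp, Cidec, Fasn, Orm1, Adig, Slc2a4, Fcrls, Spi1 and P2ry13, whose courses rest on the non-normalized intensity alone. Array number limits the precision: there was 1 array per day.

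The 4 knockout arrays were corrected and normalized with neqc in limma 3.58.1 (R 4.3.3): normexp with the detection p-values, an offset of 16, quantile normalization and log2. Of 25697 probes, 23978 carried 1 gene symbol, 1719 none and 0 several. Probes with a detection p below 0.05 on at least 2 arrays were kept, and the brightest probe stood for a gene. Genes not above background in a window are given as "at least" folds, from the lowest signal of a detected probe. Tests were two-sided limma fits with Benjamini-Hochberg adjustment over all genes. The fits were also run on simulated data, where the days of a window differed by noise only or the course was a straight line. That run does not show how the fits behave where neighbouring days truly differ or a course levels off. P-values measure the spread between these arrays only, which may be technical in part. Genes were named by rule: Irf3, the 12 largest late differences in each direction (called or not), the 5 largest of each step in each direction, the 5 clearest turns, the 5 smallest interaction p in each direction, and list members. The members and lists were chosen with earlier results of these data known.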

Additional observations from a re-analysis of the deposited data

Results flagged for a closer look

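Of the genes named, 7 moved in opposite directions in the genotypes, with late and early arrays that did not overlap in either. The difference, knockout minus wildtype late minus early change in log2 units, was -1.36 for Ube2l6, -1.39 for Fam78b, -1.35 for Socs1, -1.19 for Saa3, -1.34 for Usp18, -1.70 for Isg15 and -1.13 for Ifi205. In each, the knockout was lower late and the wildtype higher. The limma interaction test called none of the 9758 genes (smallest adjusted p = 0.981), while 437 had an unadjusted p under 0.05. Over all 9758 genes, 184 (1.89%) moved in this way and 137 (1.4%) in the reverse. Ube2l6, Fam78b and Socs1 were named for their small interaction p, so their opposite directions are in part a result of that choice. Fam78b was above background on only 2 knockout arrays, and Socs1 on only 2 wildtype arrays.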

How the results depend on the processing

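The window test called 0 genes under every change of normalization, filter or probe choice tried, 14 with a trended and robust prior, 259 by slope, 1 (P2ry13) in a fit of all 8 arrays, and 0 to 997 when an array was left out. P2ry13 had passed the filter through its late knockout arrays only. The 832 genes at least 2-fold apart (581 higher, 251 lower) became 370 (296 and 74) without background correction, and 157 were lower at an offset of 50. Leaving out an array gave 506 to 1389 (375 to 841 higher, 131 to 548 lower). The 259 slope calls became 537 with median scaling, 162 with no filter, 465 at an offset of 50, 677 with the trended and robust prior, and 0 to 488 when an array was left out. The 18 macrophage genes that rose became 0 to 17 when an array was left out, with 0 only without day 7. The 0 fat cell markers that rose became 1 with all 8 arrays normalized together or the mean of probes, 3 without background correction, 5 with median scaling or an offset of 50, and 0 to 13 when an array was left out. Steps at 1.5-fold, at 3-fold and without background correction counted 1986, 227 and 278 genes (days 3 to 5), 1818, 112 and 165 (days 5 to 7) and 1393, 17 and 31 (days 7 to 9), and the deposited matrix gave 395 for the last. The interaction gave 0 calls throughout, with day as a block too. The median difference moved beyond the spread between days for 10 of 35 gene lists in the deposited matrix, 3 without background correction and 5 to 10 when an array was left out. Of 1775 values of single genes, 1644 kept direction and side of the threshold, 127 passed it (113 without day 5, 14 without day 3) and 4 reversed, all for Irf3 (-0.01 as reported): 0.10 in the matrix and with the mean of probes, and -0.36 to 0.35 when an array was left out, with 0.02 without day 3 and 0.35 without day 7. Apart from fewer arrays or another fold, the cause was not tested. No paired analysis was possible because replicate numbers pair nothing with 1 array per group; the day block stands in for it. That block, the alternatives for the slope and the use of the slope for "rose" and "fell" were chosen after seeing the data. Quantile normalization sets equal distributions; dim and near-saturated probes understate change.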
